A study of Homo sapiens with 12 samples.

Results

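The genes examined encode the proteasome and the proteins that assemble, activate or inhibit it. They were taken from the deposited count table by symbol: PSMA, PSMB, PSMC, PSMD, PSME, PSMF or PSMG followed by a number, without antisense or pseudogene symbols. This found 49 of the 28278 genes in the table. By role, 8 belong to the alpha ring of the 20S core particle, 11 to its beta ring, 17 to the 19S regulatory particle, 7 to the assembly chaperones and 5 to the activators and the inhibitor. The remaining gene, PSMC3IP, encodes a partner of meiotic recombination enzymes and is no proteasome subunit; it is in the set through its symbol only. The read depth allowed a test for 45 of the 49.

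The proteasome is the main machine that degrades proteins marked with ubiquitin. Its 20S core is a stack of rings in which the outer alpha rings form the gate and the inner beta rings carry the protease sites; the 19S particle on its end binds ubiquitin, removes it and unfolds the substrate with a ring of ATPases. Proteins that cannot fold in the endoplasmic reticulum (ER) are pulled back into the cytosol and destroyed by this machine, so that a secretory cell such as the alpha cell, which makes glucagon, depends on it, and when proteasomes fall short the transcription factor NFE2L1 is known to switch on the subunit genes together.

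RNA was sequenced in bulk from alpha cells made by differentiation of HUES-8, an established line of human embryonic stem cells. The cells were held for 48 h in bioreactors of 30 mL stirred at 40 rpm, with either the solvent DMSO (6 samples) or 5 uM tunicamycin (6 samples), an antibiotic that blocks N-linked glycosylation and so causes ER stress. Samples numbered 1 to 3 of each group were sequenced in batch 1 and samples numbered 4 to 6 in batch 2. All samples come from 1 cell line and from 1 time and 1 dose, and the sources used here do not say whether the biological replicates were separate differentiations, so the p-values cover only the spread among these 12 samples.

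Totals ran from 17523442 to 28872269 counts per sample. Levels are given as CPM, read counts scaled to a common library size. The glucagon gene GCG, the defining transcript of the alpha cell, had 61679 to 91983 CPM with DMSO and 44759 to 68819 CPM with tunicamycin. The treatment was visible in every sample: HSPA5, the main ER chaperone, lay at 626 to 1057 CPM with DMSO and 3679 to 6238 CPM with tunicamycin, and HERPUD1 and DDIT3 rose with log2 fold changes of 2.28 and 2.13. Of 17137 genes tested, 1344 (7.84%) changed at an adjusted p under 0.05, 781 (4.56%) higher and 563 (3.29%) lower with tunicamycin.

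Where the start sites of these genes lie is shown first, because the genes are known to share a control element there. RefSeq promoter windows (GRCh38.p14, 250 bases before to 50 bases after the start) were at hand for 43 of the 49 genes. The core of the antioxidant response element, the site bound by NFE2L1 and its relatives with small MAF partners, was searched as TGACNNNGC on both strands. It occurred in windows of 15 of the 43 genes (34.9%), against 16.1% of the 27305 genes with a window. Examples are printed for the alpha ring (PSMA4), the lid of the 19S particle (PSMD3 and PSMD12), the chaperones (PSMD5) and the activators (PSME1), and PSMD1 is added because it is, with PSMA4, a gene that passed the test described next. Capitals mark the antioxidant element core, and in PSMA4 also CGTGG, the reverse complement of the CCACG that forms part of the ER stress element.
PSMA4, chr15:78540636-78540785, plus strand: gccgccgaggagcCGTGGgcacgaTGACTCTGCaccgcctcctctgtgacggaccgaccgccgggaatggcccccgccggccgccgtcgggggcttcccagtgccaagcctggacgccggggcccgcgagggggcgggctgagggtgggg
PSMD3, chr17:39980740-39980796, plus strand: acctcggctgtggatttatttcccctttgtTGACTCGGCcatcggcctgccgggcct
PSMD12, chr17:67366704-67366772, minus strand: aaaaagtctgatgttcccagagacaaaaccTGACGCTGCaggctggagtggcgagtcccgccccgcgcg
PSMD5, chr9:120843018-120843086, minus strand: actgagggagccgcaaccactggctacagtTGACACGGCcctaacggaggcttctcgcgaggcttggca
PSME1, chr14:24136078-24136146, plus strand: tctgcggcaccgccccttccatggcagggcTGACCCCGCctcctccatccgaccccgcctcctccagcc
PSMD1, chr2:231056714-231056863, plus strand: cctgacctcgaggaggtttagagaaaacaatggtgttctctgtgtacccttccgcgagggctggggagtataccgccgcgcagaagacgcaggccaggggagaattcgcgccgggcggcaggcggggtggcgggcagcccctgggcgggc
The PSMA4 stretch lies inside the gene span of GENCODE release 29 but outside its exons, and the others lie before the annotated first exon. PSMA4 has further windows at its annotated start. The stretch before that start (chr15:78540255-78540404) is not printed and holds CCACG but no antioxidant core. The PSMD1 stretch holds none of the motifs searched; that gene's single match to the antioxidant core begins 39 bases after the RefSeq start site and is not printed.

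No proteasome gene was called higher with tunicamycin, and 2 were called lower: PSMA4, of the alpha ring, and PSMD1, a large scaffold of the 19S base. These 2 are 4.44% of the 45 tested, beside 3.29% lower among all genes; the count of 0 higher stands beside 4.56%. At an unadjusted p under 0.05 the counts were 0 higher (10.8% of all genes) and 18 lower, or 40.0% of the 45 beside 11.2% of all genes. Most differences were small and pointed down: 40 of 45 log2 fold changes (tunicamycin over DMSO) lay below 0, beside 51.7% of all genes, with a median of -0.15 beside -0.01. In these bulk samples, fewer cells of a type and less RNA per cell cannot be told apart.

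Values below 0 were found in every subunit of the particle itself that could be tested. These 31 genes, of the constitutive 20S core and the 19S particle, had a median of -0.22, whereas the other 14 tested genes had a median of -0.02 and 9 below 0. PSMA3, PSMB7, PSMD2 and PSMD7 changed sign in some alternative settings, none of them a change of scaling alone. The labels do not say that equal sample numbers belong together. They were paired because their counts correlated, weakly for numbers 4 to 6, so results by pair or block rest on a pairing taken from these data. With the number as a block in the fit 10 of the 45 were called lower (22.2%, beside 8.4% of all genes) and 0 higher (8.92%). Those 10 were PSMA4, PSMA7, PSMB2, PSMB5, PSMC1, PSMC5, PSMC6, PSMD1, PSMD4 and PSMD14, each a constitutive 20S or 19S subunit. DESeq2, a further count test, called 9 lower (5.9% of all genes) and 0 higher, namely PSMB1 and 8 of the 10 just listed, without PSMB5 and PSMC6. The number of calls turned on the test and on the samples. With both samples numbered 5 left out, 0 of 45 were called, beside 1.29% of all genes called lower, and the median was -0.11.

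**Figure D1:**
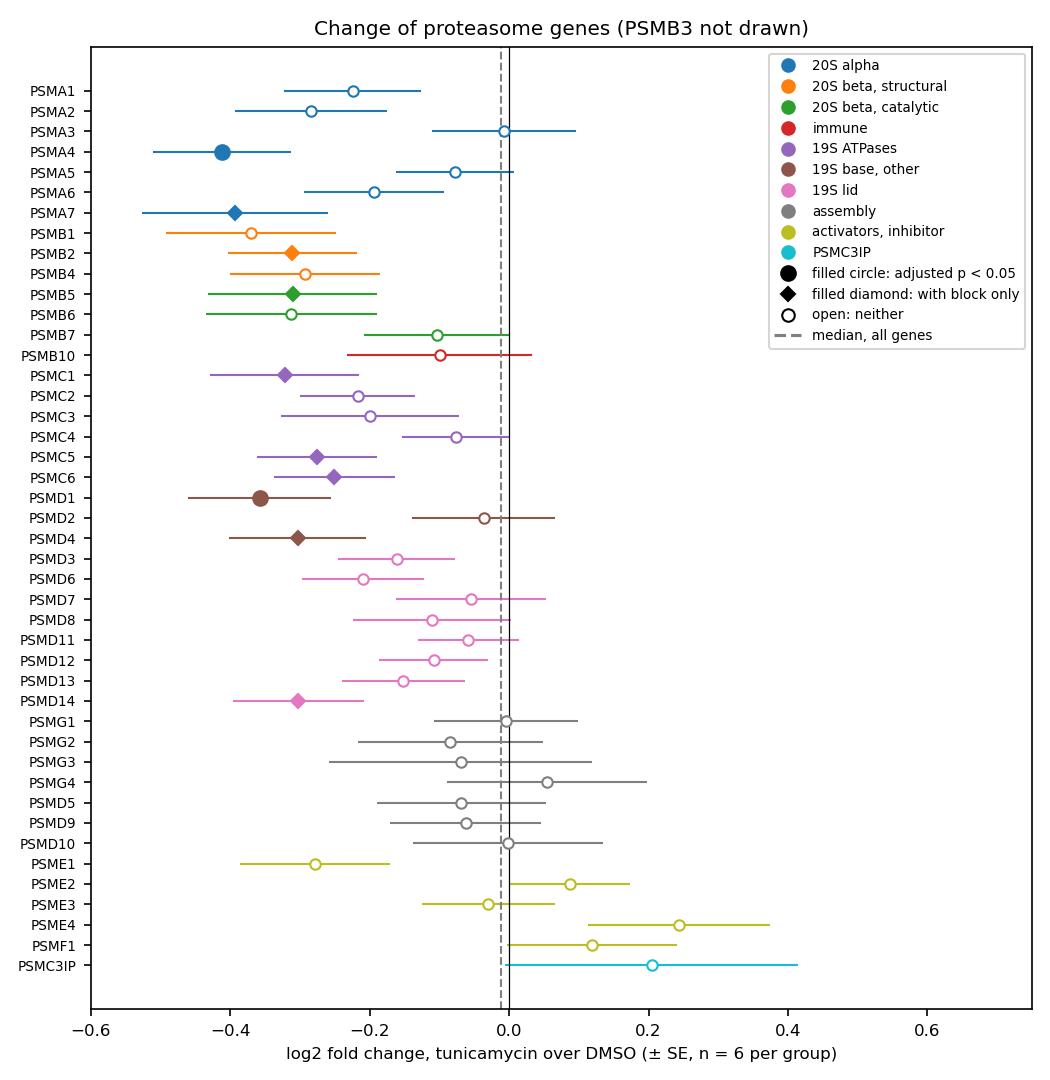
Log2 fold change (tunicamycin over DMSO) of the 44 tested proteasome genes other than PSMB3, with its standard error (n = 6 per group), coloured by role. Filled circles are PSMA4 and PSMD1, filled diamonds the 8 further genes called lower with the replicate block; all 20S and 19S points lie left of 0, and the chaperones, activators and inhibitor spread around it.

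The alpha ring forms the gate of the core and the surface on which regulators dock. PSMA4 had 86.2, 95.2 and 117 CPM with DMSO (lowest, median and highest of 6) and 63.2, 76.5 and 83.8 CPM with tunicamycin. The groups did not overlap, which held for 1.3% of all genes in this direction, and PSMA4 was lower in 6 of 6 pairs of equal number. It fell from 99.8 ± 12.7 to 75.1 ± 7.77 CPM (SD, n = 6 each), 1.33-fold, with a log2 fold change of -0.41 ± 0.10 (SE) and an adjusted p of 0.0214 in edgeR's quasi-likelihood test. The call was lost without tunicamycin 5 (adjusted p = 0.058), without both samples numbered 5 (0.103) and without both numbered 3 (0.0516), while the log2 value stayed between -0.45 and -0.35 when single samples were left out.

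PSMA7, another alpha subunit, had the widest spread of the ring. It lay at 97.5, 149 and 240.1 CPM with DMSO and at 86.7, 112 and 145 CPM with tunicamycin. The highest value belonged to DMSO 5, and the groups overlapped. The log2 fold change was -0.39 ± 0.13 with an adjusted p of 0.0929, and 0.0475 with the block. The other tested alpha genes ran from PSMA2 (-0.28) through PSMA1 (-0.22), PSMA6 (-0.19) and PSMA5 (-0.08) to PSMA3 (-0.01), none of them called with or without the block. PSMA3 had 58.0 ± 9.23 CPM with DMSO and 57.8 ± 4.73 CPM with tunicamycin, the smallest difference among the 31 core and 19S genes, with a 95% interval of -0.23 to 0.22. PSMA8, which replaces PSMA7 in the testis, had a count of 0 in all 12 samples.

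In the beta ring, PSMB1, PSMB2 and PSMB4 are structural members without a protease site. PSMB2 had 93.1, 116 and 135 CPM with DMSO against 85.6, 92.8 and 99.0 CPM with tunicamycin. The 2 ranges overlapped only in their ends, and PSMB2 was lower in 6 of 6 pairs. Its log2 fold change was -0.31 ± 0.09 with an adjusted p of 0.0553, and the gene passed the threshold in 8 of 25 alternative settings. PSMB1 (-0.37 ± 0.12, adjusted p = 0.0832) and PSMB4 (-0.29 ± 0.11, adjusted p = 0.121) were likewise lower in 6 of 6 pairs, a pattern shown by 10.4% of all genes. Neither was called by edgeR with or without the block, and DESeq2 called PSMB1 (adjusted p = 0.0377).

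The protease sites of the constitutive core belong to PSMB5, PSMB6 and PSMB7, with chymotrypsin-like, caspase-like and trypsin-like activity. PSMB5, the subunit that proteasome inhibitors used in the clinic bind, had 90.6, 117 and 158 CPM with DMSO and 77.8, 98.7 and 106 CPM with tunicamycin. Its log2 fold change was -0.31 ± 0.12, with an adjusted p of 0.145 and of 0.0465 with the block. PSMB6 stood at -0.31 ± 0.12 (adjusted p = 0.147). PSMB7 stood at -0.10 ± 0.11 (adjusted p = 0.619), and its batches differed in sign, with -0.23 in batch 1 and 0.03 in batch 2. The intervals of the 3 genes overlapped, and differences between them were not tested.

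PSMB3, a further structural beta subunit, could not be read in these data. Every 20S core needs it, yet its counts ran from 12 to 677 per sample. Its CPM with DMSO were 2.09, 25.1, 0.948, 16.96, 4.17 and 1.67 in samples 1 to 6, and with tunicamycin 0.940, 0.897, 0.791, 1.77, 10.7 and 0.581. High and low values occurred in both groups without order. The log2 fold change of -2.04 ± 0.95 (adjusted p = 0.23) moved between -3.09 and -0.80 as single samples were left out. Genes next to it on chromosome 17 were similarly erratic, CISD3 with 3 to 416 counts and PCGF2 with 38 to 1128, whereas RPL23 and LASP1, also nearby, had 4923 to 12588 and 5617 to 11696. What the counts of PSMB3 measure was not tested, and its value is left out of the sums given here.

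Under interferon, PSMB8, PSMB9 and PSMB10 replace the constitutive protease subunits and form the immunoproteasome, and PSMB11 does so in the thymus. Only PSMB10 could be tested: it had 10.01, 11.2 and 16.6 CPM with DMSO and 8.55, 11.2 and 14.1 CPM with tunicamycin, a log2 fold change of -0.10 ± 0.13 (adjusted p = 0.722). PSMB8 had 0 to 2 counts, PSMB9 0 to 8 and PSMB11 0 to 4 per sample. PSMB8 and PSMB9 lie in the major histocompatibility complex on chromosome 6, where the table is thin as a whole. Of 143 protein-coding genes there, 5.6% had a mean of 10 CPM or more, against 55.9% of the 18839 elsewhere, and the RNA helicase gene DDX39B, which most cells use, had 0 counts in all 12 samples. Low counts of PSMB8 and PSMB9 are therefore no measure of absence.

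The 19S base is driven by the ATPases PSMC1 to PSMC6, which unfold the substrate. All 6 lay below 0 with a median of -0.23, none was called, and PSMC1, PSMC5 and PSMC6 were called with the block. PSMC5 had 134, 153 and 166 CPM with DMSO and 104, 123 and 157 CPM with tunicamycin. It was lower in 6 of 6 pairs, and the ranges overlapped, since tunicamycin 4 and 6, at 136 and 157 CPM, lay within the DMSO range. The log2 fold change of PSMC5 was -0.28 ± 0.09 (adjusted p = 0.0675, and 0.0359 with the block). PSMC1 stood at -0.32 ± 0.11 (0.0846, and 0.0402 with the block) and PSMC6 at -0.25 ± 0.09 (0.1, and 0.0443). PSMC4 had the smallest value of the ring at -0.08 ± 0.08. PSMC1 has 13 annotated pseudogene copies, and PSMC1 and PSMC5 share exonic bases with NRDE2 and FTSJ3, so that their counts depend on how shared reads were assigned.

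PSMD1 and PSMD2 are the large scaffolds of the base, and PSMD4 is a ubiquitin receptor. PSMD1 had 82.3, 112 and 131 CPM with DMSO and 75.2, 85.9 and 93.1 CPM with tunicamycin. The groups overlapped through DMSO 3, the lowest DMSO sample, while every pair of equal number was lower with tunicamycin. PSMD1 fell from 109.9 ± 17.01 to 85.5 ± 7.04 CPM, 1.28-fold, with a log2 fold change of -0.36 ± 0.10 and an adjusted p of 0.0487. That call lay at the threshold and was lost in 17 of 25 alternative settings, among them 10 of the 12 that leave out a single sample, with adjusted p up to 0.137 there.

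PSMD4 had 92.9, 113 and 152 CPM with DMSO and 81.6, 93.1 and 106 CPM with tunicamycin. The fitted log2 value was -0.30 ± 0.10 (adjusted p = 0.0801, and 0.0406 with the block). The partner scaffold PSMD2 differed from PSMD1 in its values. It had 142, 193 and 217 CPM with DMSO and 168, 181 and 191 CPM with tunicamycin, so that the treated range lay inside the control range. Its log2 fold change was -0.04 ± 0.10 (95% interval -0.26 to 0.18), with 0.09 in batch 1 and -0.15 in batch 2. The difference between PSMD1 and PSMD2 was not tested.

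The lid holds the deubiquitinase PSMD14, which cuts the ubiquitin chain from the substrate, among 7 structural partners. PSMD14 had 44.3, 58.5 and 63.0 CPM with DMSO and 41.7, 45.4 and 48.8 CPM with tunicamycin. It was lower in 6 of 6 pairs, and only DMSO 3 fell within the tunicamycin range. The log2 fold change was -0.30 ± 0.09 (adjusted p = 0.0675, and 0.0247 with the block). The structural genes PSMD3, PSMD6, PSMD7, PSMD8, PSMD11, PSMD12 and PSMD13 ran from -0.21 (PSMD6) to -0.05 (PSMD7) and were called neither with nor without the block. The median of the lid was -0.13, nearer 0 than that of the ATPases.

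Assembly chaperones guide the building of the particle and leave it afterwards: PSMG1 to PSMG4 help to build the 20S core, and PSMD5, PSMD9 and PSMD10 the ATPase ring. None of the 7 was called in any fit. Their log2 fold changes ran from -0.08 (PSMG2) to 0.05 (PSMG4), with a median of -0.06. PSMD10, also known as the oncoprotein gankyrin, had 62.2 ± 10.6 CPM with DMSO and 62.2 ± 9.47 CPM with tunicamycin. The 95% interval of its log2 fold change ran from -0.29 to 0.29.

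Activators dock in place of the 19S particle, and PSMF1 competes with them. PSME4, whose product caps the core in the nucleus and acts in DNA repair and sperm formation, had 75.2, 94.1 and 123 CPM with DMSO and 94.2, 109 and 154 CPM with tunicamycin. It was higher in 5 of 6 pairs, and the groups overlapped widely. Its log2 fold change was 0.24 ± 0.13 (adjusted p = 0.302), the highest of the 45. PSMF1 stood at 0.12 ± 0.12 (adjusted p = 0.622).

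PSME1 and PSME2 form 1 activator ring together and are known for their induction by interferon. PSME1 had 49.2, 59.4 and 80.1 CPM with DMSO and 37.1, 51.6 and 57.4 CPM with tunicamycin. It was lower in 6 of 6 pairs, with a log2 fold change of -0.28 ± 0.11 (adjusted p = 0.139). PSME2 had 52.7, 61.9 and 64.9 CPM with DMSO and 52.1, 64.2 and 77.8 CPM with tunicamycin, and its log2 fold change was 0.09 ± 0.09 (adjusted p = 0.615). PSME3, which forms a ring of its own in the nucleus, stood at -0.03 ± 0.10. Both PSME1 and PSME2 share exonic bases with a neighbouring gene, EMC9 and RNF31, and PSMC3IP stood at 0.20 ± 0.21 from a low level of 6.99 ± 1.79 CPM with DMSO.

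Summed over the genes of a particle, the direction was the same in every pair. The 13 constitutive 20S genes without PSMB3 summed to 1051, 1365, 1180 and 1662 CPM in DMSO 3, 1, 4 and 5, and to 980 to 1176 CPM with tunicamycin. The difference of tunicamycin from DMSO was -28.1%, -11.8%, -6.75%, -4.24%, -35.2% and -8.86% in pairs 1 to 6, so pairs 1 and 5 stood apart from the other 4. For the 17 genes of the 19S particle the mean was 1681 ± 177 CPM with DMSO and 1488 ± 85.8 CPM with tunicamycin (SD, n = 6). Assembly chaperones summed to 210.4 ± 22.6 and 204.9 ± 17.2 CPM and were lower in 2 of 6 pairs, and activators with the inhibitor summed to 465.9 ± 38.4 and 492 ± 35.9 CPM and were lower in 1 of 6.

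**Figure D2:**
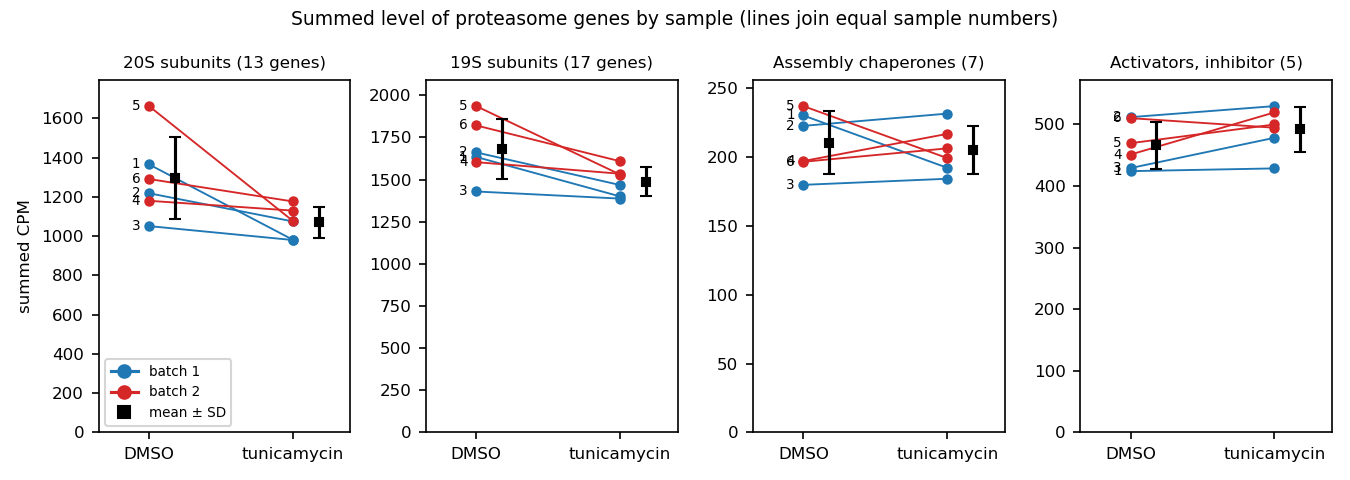
Summed CPM of 20S genes (13, without PSMB3), 19S genes (17), assembly chaperones (7) and activators with inhibitor (5) in each sample, from an axis at 0; lines join DMSO and tunicamycin samples of equal number and squares give mean ± SD (n = 6). Both particles are lower in 6 of 6 pairs, with the steepest lines from DMSO 1 and DMSO 5, while chaperones and activators go both ways.

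The DMSO samples were spread more widely in the 20S sum than the tunicamycin samples. DMSO 5 held the highest of all 12 values for 26 of the 45 genes and for 21 of the 31 core and 19S genes. DMSO 3, the shallowest sample, was the lowest of the DMSO group for 28 of the 45. The SD of the 20S sum was 209 CPM with DMSO and 78.7 CPM with tunicamycin. Over the 45 genes the median log2 difference within a pair was -0.29, -0.13, -0.05, -0.00, -0.38 and -0.12 for pairs 1 to 6, with an SD of 0.146 over pairs, so pair 4 had almost no difference and pair 5 the largest. Without DMSO 3 the number of these genes called lower was 5, beside 3.48% of all genes, and without tunicamycin 5 it was 0, beside 1.91%.

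**Figure D3:**
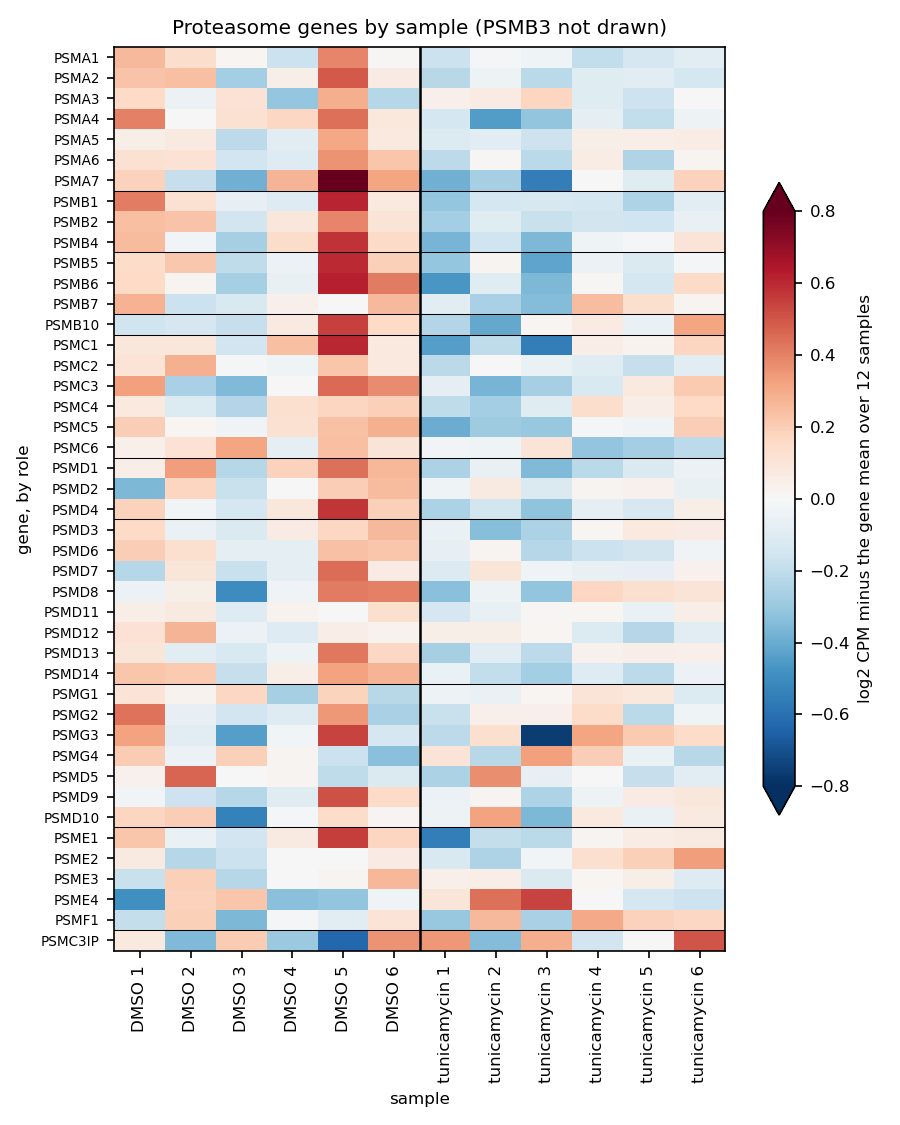
Log2 CPM of 44 proteasome genes in the 12 samples, each minus the gene's mean, with rows by role and the groups parted by a line (red higher, blue lower; colour ends at 0.8). The column of DMSO 5 is red in most rows down to PSMD14, DMSO 3 is blue in most, and the tunicamycin columns are pale blue in the 20S and 19S rows.

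Summed markers of alpha cells and of other cells also differed between the groups. Called counts here are edgeR's with batch, followed by those with the block, all of them lower. Of all genes tested, 3.29% were called lower with batch and 8.4% with the block. Those shares stand beside the counts of every marker list given here and in the next paragraph. The summed alpha cell list (8 genes, 0 and 1 called) ran from 79750 to 118500 CPM with DMSO and from 59600 to 95350 CPM with tunicamycin, with differences of -43.6%, -19.5%, -10.1%, -4.91%, -29.3% and -3.15% in pairs 1 to 6. GCG itself had a log2 fold change of -0.39 ± 0.16, with an adjusted p of 0.176 in edgeR, 0.0628 with the block and 0.038 in DESeq2. The beta cell list (3 and 3 of 5 called, sums of 283.5 to 685.5 and 213.3 to 440.2 CPM) differed by -54.2%, -24.8%, -16.9%, -28.1%, -53.0% and -20.4%. In both lists pairs 1 and 5 were the pairs with the largest declines, as in the 20S sums. This order did not hold in the marker lists of other cells that follow.

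Ductal markers (2 and 3 of 5 called) summed to 258.2 to 481 CPM with DMSO and 144.7 to 283 CPM with tunicamycin. Endothelial markers (2 and 3 of the 3 tested, with 4 listed) summed to 6.997 to 53.5 and 1.74 to 16.2 CPM. Immune markers (1 and 2 of the 3 tested, with 7 listed) summed to 50.7 to 74.6 and 29.1 to 49.7 CPM. The reads were too few to test the other immune genes, and 4 of the 7 were at 0 in a DMSO sample. Mesenchymal markers (0 and 7 of 9) summed to 728 to 2334 and 817 to 1421 CPM. The 7 mesenchymal genes lower with the block stand beside 8.4% of all genes, and DESeq2 called 1 of the 9, beside 5.9%. Heart muscle markers (0 and 1 of 9) ran from 34.3 to 2183 CPM with DMSO and from 32.2 to 1171 CPM with tunicamycin, with both maxima in the samples numbered 5, and no marker of any list was at 0 in all samples. The largest declines were in pairs 2 and 5 for ductal markers (-59.8% and -53.3%) and in pairs 3 and 2 for endothelial markers (-86.4% and -75.1%). They were in pairs 1 and 4 for immune (-42.5% and -40.4%) and heart muscle markers (-88.0% and -47.8%). For mesenchymal markers they were in pairs 1 and 6 (-48.3% and -30.3%). Not every pair declined: mesenchymal sums rose in pairs 2 and 4 (12.2% and 12.5%) and the heart muscle sum in pair 6 (38.0%). Most of the mesenchymal sum was VIM, with 796 of a mean of 1417 CPM with DMSO. VIM, named after its value was seen, had a log2 fold change of 0.10 ± 0.20. The part of other cells in the proteasome values was not tested.

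Both sequencing batches gave the same median for the proteasome genes. The median over the 45 genes was -0.16 in batch 1 and -0.16 in batch 2, and the interaction of treatment and batch, tested with edgeR, was called for 0 of 45 and for 0% of all genes, with 0 of 45 at an unadjusted p under 0.05 (0.986% of all genes). For the 20S genes the medians were -0.27 and -0.32, and for the 19S genes -0.16 and -0.19. Within a batch of 3 against 3, no member was called in either. Of all genes, 0.0354% were called lower in batch 1 alone and 1.23% in batch 2 alone.

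Levels between genes are compared per kilobase of coding sequence. The order of the genes depends on this choice of length. Among the 20S genes other than PSMB3, PSMB7 had the lowest level with DMSO at 68.1 ± 8.95 CPM per kb and PSMA7 the highest at 203 ± 67.0. Among the 19S genes the range was from 38.4 ± 5.95 (PSMD1) to 124 ± 10.4 (PSMC5) CPM per kb. PSMF1 stood at 198 ± 27.1 CPM per kb, beside 17.8 ± 3.66 for PSME4 and 14.6 ± 3.08 for the immune subunit PSMB10. In the tunicamycin group PSMB2 had the highest level of the 20S genes at 154 CPM per kb and PSMA7 followed at 153, a difference smaller than the spread of either gene between samples. Divided by all annotated exon bases, a length added after the values were seen, the order was different: PSMB2, with 4843 exon bases, stood at 23.8 CPM per kb with DMSO, PSMA7 at 96.4, and PSMB4, with 964 exon bases, was the highest 20S gene other than PSMB3 at 144. The 19S genes then ran from 11.7 (PSMC1) to 84.3 (PSMD4) CPM per kb.

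**Figure D4:**
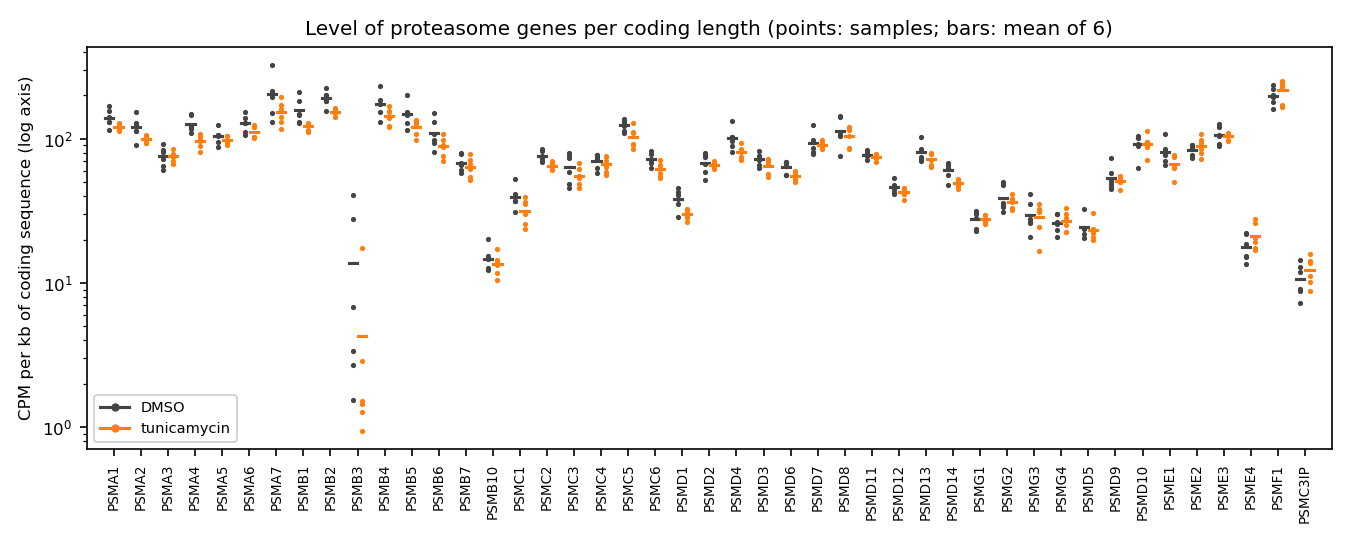
CPM per kilobase of coding sequence (log axis) of the 45 tested proteasome genes by role, with 6 points and the mean for DMSO (grey) and tunicamycin (orange). The 20S genes other than PSMB3 lie between 68.1 and 203 on average with DMSO, PSMB3 scatters over more than a decade, and PSMB10, PSME4 and PSMC3IP lie lowest of the rest.

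Across genes, log2 fold changes were lower for shorter coding sequences, and 26 of the 45 proteasome genes have under 900 coding bases. Over 14747 protein-coding genes, Spearman's rho of coding length and log2 fold change was 0.17, a value across genes, which are no replicates and share the 12 libraries. In the 26 members under 900 coding bases the median log2 fold change was -0.10, beside -0.10 for all 3664 such genes. These 26 are a mixture: they hold all 14 constitutive 20S genes, with a median of -0.30. The rest are chaperones, activators, the inhibitor, PSMB10 and PSMC3IP. What part of the 20S values goes with coding length was not tested. In the 14 members from 900 to under 1500 bases it was -0.20 beside -0.02, and in the 5 longer ones -0.07 beside 0.03. With the trend over coding length removed in each sample, 2 members were called lower, PSMA4 and PSMB2, beside 3.5% of all genes. In that fit 34 of 45 lay below 0 with a median of -0.13.

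Genes with and without the antioxidant response core had similar values. Among tested members with a promoter window, the 14 with TGACNNNGC had a median log2 fold change of -0.10 and the 25 without it -0.15. Of the 10 genes lower with the block, 8 had a window. The core was present in PSMA4 (beginning 126 bases before a start site inside the gene), PSMC5 (57 bases before) and PSMD1 (39 bases after). The PSMA4 windows at the annotated start of the gene did not hold it. PSMB2, PSMB5, PSMC1, PSMC6 and PSMD14 had no match in their windows. The longer motifs of ER stress control were rare. TGATGNAA, the core of the element bound by C/EBP and ATF factors, occurred in 1 of 43 genes (PSMF1, 2.3% beside 4.5% of all genes). TGACGTGG, the UPR element core, occurred in 0 of 43 (0.9% of all). The shorter motifs were common: CCACG occurred in 39.5% (42.1% of all), and CCAAT, the NF-Y box that completes the ER stress element, in 48.8% (39.7% of all). The median log2 fold change was -0.08 in 17 tested members with CCACG and -0.20 in 22 without it. For CCAAT it was -0.20 in 19 with it and -0.09 in 20 without it. These differences were not tested. CCACG on the reverse strand reads CGTGG and is held within TGACGTGG, and TGAC opens both that core and the antioxidant one. A match is only a description of these letters in these windows.

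NFE2L1 and its partners were examined as a list of 13 genes, of which 4 rose and 0 fell, beside 4.56% and 3.29% of all genes. NFE2L1, the factor known to drive the subunit genes, had 226, 300.3 and 399 CPM with DMSO and 324, 502 and 603 CPM with tunicamycin. It was higher in 6 of 6 pairs, with overlapping groups, a log2 fold change of 0.63 ± 0.17 and an adjusted p of 0.0362. The call was lost in 10 of 25 settings, of which 8 leave out a single sample (adjusted p up to 0.0869). Its RNA says nothing of its activity, since the protein is held in the ER membrane and is set free by cleavage.

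The small MAF partners MAFF and MAFK and the repressor BACH2, which competes for the same sites, were the other 3. MAFF had 9.43, 12.9 and 19.1 CPM with DMSO and 16.99, 20.8 and 30.3 CPM with tunicamycin. Its log2 fold change was 0.77 ± 0.14 (adjusted p = 0.00412). MAFK rose from 41.1 ± 4.84 to 57.7 ± 8.49 CPM (0.49 ± 0.12, adjusted p = 0.0192, and 0.0505 without tunicamycin 6). BACH2 had 12.3, 17.1 and 21.9 CPM with DMSO and 24.9, 28.3 and 64.4 CPM with tunicamycin, where tunicamycin 1 stood far above the rest (0.98 ± 0.20, adjusted p = 0.00849). With the block 7 of the 13 were higher and 1 was lower, beside 8.92% and 8.4% of all genes. The lower one, named after its value was seen, was NFE2L3, a relative of NFE2L1, at -0.74 ± 0.26 (adjusted p = 0.109, and 0.00298 with the block).

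**Figure D5:**
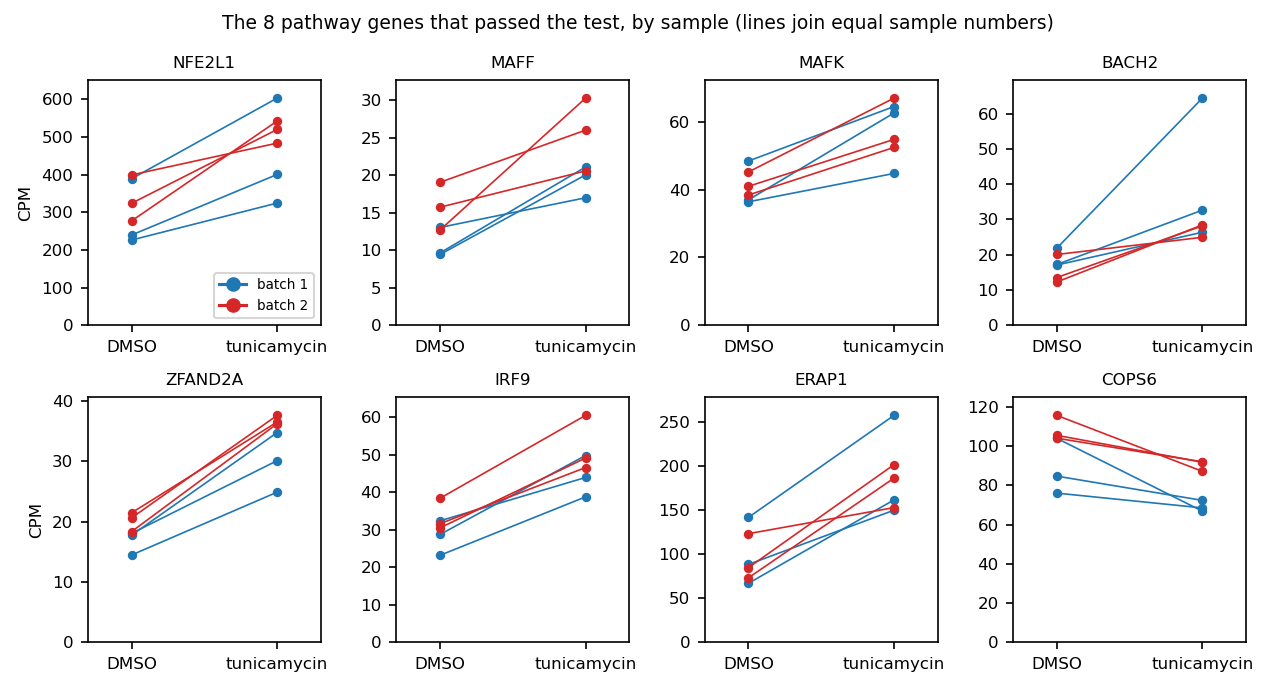
CPM of the 8 pathway genes that passed the test, by sample, from an axis at 0; lines join samples of equal number, blue for batch 1 and red for batch 2. Each line rises for NFE2L1, MAFF, MAFK, BACH2, ZFAND2A, IRF9 and ERAP1 and falls for COPS6, and tunicamycin 1 stands out for BACH2.

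Of 14 proteasome-associated genes without a PSM symbol, 1 rose and 0 fell, beside 4.56% and 3.29% of all genes, with a median of 0.02. ZFAND2A, a stress-induced zinc finger protein that binds the 19S particle, had 14.5, 18.2 and 21.5 CPM with DMSO and 24.9, 35.5 and 37.6 CPM with tunicamycin. The groups did not overlap, which in this direction held for 2.47% of all genes. The log2 fold change was 0.85 ± 0.10 with an adjusted p of 0.000167. Of 11 genes of ubiquitin supply and delivery edgeR called none without the block. With the block and with DESeq2 1 was lower, beside 8.4% and 5.9% of all genes. That gene, the ubiquitin-activating enzyme gene UBA1, was named after its value was seen (-0.27 ± 0.09, adjusted p = 0.0734 in edgeR, 0.0339 with the block and 0.0072 in DESeq2). Of the others UBB, which encodes a chain of ubiquitin units, stood at -0.11 ± 0.17 (adjusted p = 0.748).

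The interferon and antigen list, 14 of whose 15 genes were tested, had 2 higher and 0 lower, beside 4.56% and 3.29% of all genes. IRF9, the DNA-binding part of the interferon-activated complex, rose from 30.8 ± 4.96 to 48.1 ± 7.26 CPM (0.64 ± 0.11, adjusted p = 0.00292), and ERAP1, which trims peptides in the ER, from 96.6 ± 29.6 to 185 ± 40.9 CPM (0.94 ± 0.20, adjusted p = 0.00919, and 0.0548 without both samples numbered 5). Neither group pair overlapped, while PSMB10, PSME1 and PSME2 of the same interferon response were not called. The COP9 signalosome, a complex built like the lid, had 0 higher and 1 lower of 10, beside the same shares of all genes. That gene, COPS6, stood at 98.3 ± 14.8 and 79.8 ± 11.8 CPM (-0.31 ± 0.09, adjusted p = 0.0453), and its call was lost in 17 of 25 settings, with adjusted p up to 0.109 where a single sample was left out.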

How the data were processed

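The authors deposited raw read counts per gene symbol as whole numbers, with no normalization and 1 column per sample. The submitters' processing notes name GRCh38 as the build and the tools featureCounts 2.0.6, HISAT2 2.1.0 and cutadapt 4.4. The annotation, the strand setting and the handling of reads that match several places were not stated in the sources used. The 13 members with exonic bases under another gene and the 12 with annotated pseudogene copies are less certain. From these counts, filterByExpr of edgeR 4.0.16 in R 4.3.3 kept 17137 genes. Libraries were scaled with TMM, and CPM use the scaled sizes. The main test was edgeR's quasi-likelihood test, two-sided, with batch as covariate and Benjamini-Hochberg adjustment over all genes tested. In simulated data it found 2% of genes changed 1.25-fold, 36% at 1.5-fold, 70% at 2-fold and 98% at 4-fold. The largest fold of a member other than PSMB3 was 1.33 (PSMA4), so a member not called may still have changed. Alternatives were DESeq2 1.42.0, limma-voom 3.58.1, a replicate block, other scalings and filters, and samples or batches left out.

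The members and gene lists were chosen with earlier results of these data known. All members may be named. Of each other list the called genes are named, or the 2 most abundant where none was called, and 1 gene is not reported here. Deviations from group and batch means of samples with equal numbers correlated at 0.50, 0.58, 0.52, 0.12, 0.18 and 0.18 for numbers 1 to 6. The highest correlation with another number was 0.27, 0.20, 0.10, 0.07, 0.02 and 0.08. The samples were paired on these values, and the labels give the numbers no meaning. Replicates differed beyond sampling noise (chi-square per gene 10.9 to 99.6). Positions and coding lengths are from GENCODE release 29, promoter sequences from RefSeq (GRCh38.p14).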

Additional observations from a re-analysis of the deposited data

Results flagged for a closer look

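In 6 of 126 groups of 6 samples examined, for the tested members, the named pathway genes and 4 sums, 1 sample stood far from the others; chance gives this in about 1 in 20 groups. PSMB3 had 10.7 CPM in tunicamycin 5, where the next highest sample of the group had 1.77 CPM. PSMD5, a chaperone of the ATPase ring, was highest in both samples numbered 2, with 49.2 CPM in DMSO 2 (next 36.5) and 46.0 CPM in tunicamycin 2 (next 35.7). PSMD10, of the same chaperone class, was lowest in DMSO 3 with 42.2 CPM (next 60.8). BACH2 was highest in tunicamycin 1 with 64.4 CPM (next 32.7), and HERPUD1, an ER-associated degradation gene, was lowest in tunicamycin 3 with 244.6 CPM (next 324).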

How the results depend on the processing

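Of 25 alternative settings, none called a proteasome gene higher, and the median over tested members stayed between -0.19 and -0.11. In the counts called lower that follow, the share of all genes called lower stands in brackets. The number called lower (2, 3.29%) was 9 with DESeq2 (5.9%), 10 with the replicate block (8.4%), 7 with total-count (3.78%) and 6 with upper-quartile scaling (4.11%). It was 1 with limma-voom (3.03%), without a filter (2.29%) and without a batch covariate (2.23%). It was 0 in batch 1 alone (0.0354%), in batch 2 alone (1.23%) and without both samples numbered 5 (1.29%). Without single samples it was 0 to 5 (1.59% to 3.48%). Genes changed (1344) numbered 2100 with DESeq2, 2967 with the replicate block, 57 in batch 1 alone, 654 in batch 2 alone, 685 without both samples numbered 5 and 791 to 1399 without single samples, the fewest without tunicamycin 4. Among 1125 member values 60 changed sign, in 14 genes with small values, and 31 members kept their direction in every setting. The cause was not tested. In batch 1 alone the log2 fold change was 0.024 for PSMA3, 0.029 for PSMD10, 0.091 for PSMD2, 0.095 for PSMD7, 0.057 for PSMD9, -0.012 for PSME2, 0.063 for PSME3 and -0.020 for PSMG4. In batch 2 alone it was 0.031 for PSMB7, 0.0094 for PSMD5, 0.12 for PSMG1 and 0.064 for PSMG3. With the replicate block it was 0.0052 for PSMA3, 0.0046 for PSMD10 and 0.00026 for PSMG1. With limma-voom it was 0.0060 for PSMA3. With the coding-length trend removed it was 0.056 for PSMA3, 0.062 for PSMD10, 0.0064 for PSMD9, 0.020 for PSME3, 0.048 for PSMG1 and 0.066 for PSMG3. Without both samples numbered 5 it was 0.096 for PSMA3, 0.0072 for PSMB10, 0.038 for PSMD10, 0.047 for PSMD7, 0.023 for PSMD9, 0.021 for PSMG1, 0.020 for PSMG2 and 0.0011 for PSMG3. Without both samples numbered 3 it was 0.018 for PSMG1. Without single samples it ran from -0.051 to 0.089 for PSMA3, -0.095 to 0.064 for PSMD10, -0.099 to 0.021 for PSMD2, -0.15 to 0.015 for PSMD5, -0.098 to 0.035 for PSMD7, -0.11 to 0.027 for PSMD9, -0.073 to 0.025 for PSME3, -0.052 to 0.049 for PSMG1, -0.14 to 0.013 for PSMG2, -0.15 to 0.044 for PSMG3 and -0.0072 to 0.12 for PSMG4. Upper-quartile and total-count scaling, removal of the length trend and the fits without a pair of samples were chosen after seeing the data. Small differences were at the limit of 6 samples per group: the standard error of a member other than PSMB3 was 0.07 to 0.21.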
